A study of Mus musculus with 3 samples.

Results

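The genes described here are the heat shock proteins and the DnaJ chaperones of the mouse, taken as the protein-coding genes of the deposited table whose symbols begin with Hsp or Dnaj, without the matrix proteoglycan gene Hspg2 and the gene Hspbap1. The rule gave 73 genes of 57180 listed, of which 21608 are protein-coding. It took 28 Hsp genes and 45 Dnaj genes. Of the 73, 70 had a count in at least 1 library, and Dnajb8, Dnajc22 and Dnajc5g had no count in any. Their messenger RNA was measured in 3 libraries of cells with the look of black balls, taken from the vestibule, which senses balance in the inner ear. The labels give a single group, named WT, of macrophages ("immune cells"), with no treatment, age or control group. The title of the series names melanocytes instead. The study lysed 18 such cells from 9 mice, with 3 mice per group, and the number of cells behind each library was not given in the sources used here. These libraries are not tied to named animals, so each p-value below covers the spread among 3 libraries, some or all of which may be technical.

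Molecular chaperones bind proteins that are unfolded, newly made or damaged and keep them from aggregating while they fold. HSP70 proteins do this in a cycle of ATP binding and hydrolysis. DnaJ proteins, also called J proteins or HSP40s, deliver clients to HSP70 and start the hydrolysis, and exchange factors such as the HSP110 proteins reset the cycle. HSP90 proteins act later, on kinases, receptors and other partly folded clients. Small heat shock proteins hold unfolded proteins without using ATP, and the HSP60 chaperonin folds proteins in a closed chamber in the mitochondrion. Heat shock factor 1 switches on the inducible members when unfolded proteins build up in the cytosol, and the unfolded protein response does so for the members in the endoplasmic reticulum (ER). Macrophages and pigment cells both build large lysosome-related compartments, whose proteins are folded in the ER with the help of these chaperones.

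The libraries held 18460546, 15086854 and 14095521 counts in replicates 1, 2 and 3. Levels are given in TPM, a unit corrected for gene length and depth, obtained by rescaling the deposited FPKM to the same total in each library. Errors are SDs over the 3 libraries (n = 3) unless stated. A floor of 3 counts equalled 0.163, 0.199 and 0.213 CPM in the same order, CPM being the count relative to depth with no correction for length. Reads carried no molecular identifiers, so such a floor covers counting error only. The macrophage label was set against its markers: 12 of 15 macrophage markers lay above 1 TPM, as did 7 of 12 melanocyte, 8 of 8 hair cell, 7 of 7 supporting or dark epithelial, 6 of 7 fibroblast, 4 of 6 neuronal, 4 of 5 Schwann cell, 3 of 6 neutrophil and 5 of 6 erythroid markers. The share was 37.6% over all genes tested and 50.5% over the protein-coding ones, so counts such as those of the neutrophil and melanocyte lists lie near it. Which cell type carried a given chaperone transcript cannot be told apart in these libraries. In such bulk samples, fewer cells of a type and less RNA per cell cannot be told apart either. Summed TPM differed most between libraries for 4 of these lists. Schwann cell markers summed to 289.7, 116 and 224 TPM. Neutrophil markers summed to 19.9, 403 and 143 TPM in replicates 1 to 3, neuronal markers to 69.8, 64.1 and 305, and erythroid markers to 21788, 29971 and 51505. Of the macrophage markers Cx3cr1, Itgam and Cd163 did not pass. The melanocyte genes Oca2 and Mc1r had no count in replicates 2 and 3, nor had the neuronal gene Rbfox3 in replicate 1.

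Most chaperone genes were present in all 3 libraries. A gene was called above 1 TPM where the mean of log2(TPM + 1) exceeded the value of 1 TPM in limma's one-sided moderated test, with Benjamini-Hochberg adjustment over all 27265 genes with a count and a threshold of 0.05. By that test 58 of the 73 genes, or of the 70 tested, lay above 1 TPM. The share was 37.6% of all genes tested and 50.5% of the protein-coding genes tested. The count was 23 of 28 for Hsp genes and 35 of 45 for Dnaj genes. Mean levels were at least 100 TPM for 6 genes and at least 10 TPM for 43. They lay between 1 and 10 TPM for 22 genes and under 1 TPM for 8, the 3 without counts included. The median of the mean log2(TPM + 1) over the 70 genes tested was 4.20, or 19.6 TPM, against 1.49, or 2.24 TPM, over all genes tested and 2.32, or 4.55 TPM, over the protein-coding ones. All members together took 0.606%, 0.513% and 0.611% of the counts in replicates 1 to 3, so their summed share was lowest in replicate 2.

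The deposited lengths bear on every level given here. For 91.7% of 25973 genes, and for 95.7% of the 70 members tested, the length implied by count and FPKM lay within 0.5% of the sum of all distinct exon records of the gene in GENCODE M21, in which overlapping exons of alternative transcripts are added more than once. Genes with many transcripts therefore carry too long a length and too low a TPM. The implied length was longer than the merged exons in 59 of the 70 members, with a median ratio of 1.34. It ranged from 1.00 for genes with a single exon such as Hspa1a and Hspa1b to 3.36 for Dnajc7. TPM from merged exon lengths, an alternative chosen after the data were seen, is given beside each member whose mean it moved by more than 1.5 times or whose call it changed. With it, 58 members again lay above 1 TPM, beside 38.4% of all genes tested, and 57 of them were called with the deposited lengths too.

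**Figure D1:**
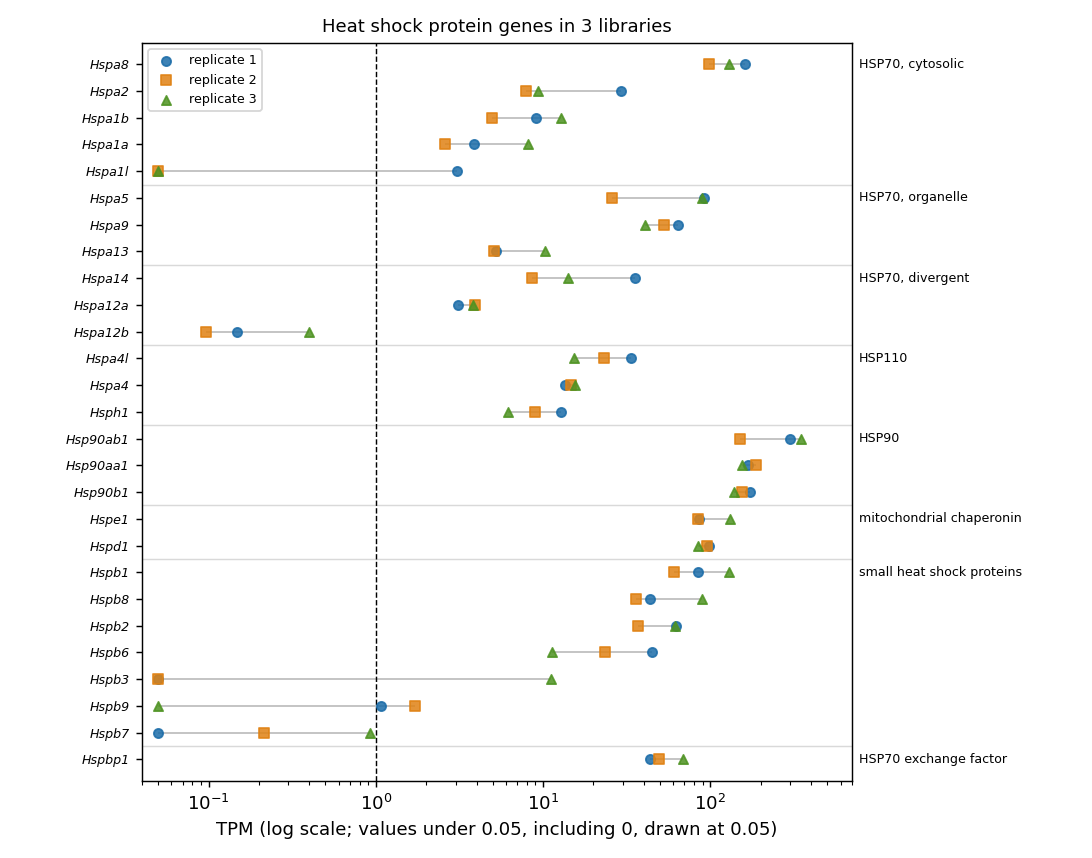
Level of the Hsp genes described in the text in each library, as TPM on a log axis, grouped by chaperone class; each symbol is 1 library, the grey line joins the lowest and highest library, and the dashed line marks 1 TPM. HSP90 genes, Hspa8 and the chaperonin genes lie near or above 100 TPM, while Hspa1l and Hspb3 each have counts in a single library.

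The cytosolic HSP70 transcripts were mostly those of Hspa8, the constitutive HSC70 that folds new proteins, strips clathrin from vesicles and carries proteins to the lysosome. The stress-inducible pair Hspa1a and Hspa1b was far lower, and 4 of the 5 genes of the class lay above 1 TPM. Hspa8 (ENSMUSG00000015656, chromosome 9, 40712280 to 40721383 in GRCm39) was at 162, 98.6 and 130.02 TPM in replicates 1 to 3, or 130.1 ± 31.5. With merged exon lengths its mean was 222 ± 51.6 TPM, since its deposited length was 2.15 times that of its merged exons. The spread between libraries was small beside the level.

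Hspa1a and Hspa1b are neighbouring intronless genes in GRCm39, at 35188166 to 35191132 and 35175412 to 35178214 on chromosome 17, and encode the HSP70 that rises after heat or proteotoxic stress. Hspa1b was at 9.13, 4.96 and 12.8 TPM (190, 94 and 238 counts), above 1 TPM with an adjusted p of 0.00257 by limma. Hspa1a stood at 3.86, 2.59 and 8.15 TPM (85, 52 and 160 counts), with an adjusted p of 0.0271 by limma. The call for Hspa1a did not hold without replicate 1 (adjusted p = 0.083 by limma), without replicate 3 (0.126), with merged exon lengths (0.061), with the length of the longest transcript (0.109) or with a pseudocount of 5 (0.0702). Of the 75-base windows of the Hspa1a transcript 52.7% occur also in Hspa1b, so reads could not all be told apart, and the sum is the firmer value. Together both genes gave 12.99, 7.56 and 20.98 TPM, or 13.8 ± 6.75, highest in replicate 3 and lowest in replicate 2.

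Hspa2, an HSP70 known from male germ cells, was at 29.3, 7.94 and 9.36 TPM (15.5 ± 11.9). Replicate 1 stood apart from the other libraries, which lay close together, and the mean was 23.5 ± 17.8 TPM with merged exon lengths. Hspa1l, its germ-cell relative, had 56 counts in replicate 1 (3.05 TPM) and none in the other libraries. Of its windows 71.1% occur in the overlapping long noncoding gene Gm10501, which had 64, 3 and 5 counts.

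Hspa8 exceeded the inducible genes in each library. Log2(TPM + 1) of Hspa8 minus that of Hspa1a was 5.06, 4.79 and 3.84 (4.57 ± 0.64), and minus that of Hspa1b it was 4.004, 4.06 and 3.24 (3.77 ± 0.46). Both differences had p = 0.25 and an adjusted p of 0.333 over 8 pairs by an exact two-sided sign-flip permutation test. That is the smallest p that 3 libraries allow, so no pair tested this way could pass 0.05. With merged exon lengths the differences were larger, 5.59 ± 0.62 and 4.83 ± 0.44. Hspa1a lay below Hspa1b in each library, by -0.80 ± 0.24 on the log2 scale (p = 0.25, adjusted 0.333, same exact test).

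The HSP70 proteins of organelles were above 1 TPM for 3 of 3 genes. Hspa5 (ENSMUSG00000026864, chromosome 2, 34661982 to 34667559 in GRCm39) encodes BiP, the HSP70 of the ER lumen and a classic target of the unfolded protein response. It was at 91.5, 25.8 and 89.3 TPM, or 68.9 ± 37.3. Replicate 2 was low, with 1211 counts against 4724 and 4110 in the others, and the other libraries lay within a few TPM of each other. Hspa9, the mitochondrial HSP70 mortalin, was at 64.4, 53.2 and 40.9 TPM, so its libraries differed less than those of Hspa5. Hspa13, a small microsome-associated HSP70, was at 5.25, 5.09 and 10.3 TPM.

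Cytosolic HSC70 exceeded BiP in 3 of 3 libraries, with log2 differences of 0.81, 1.90 and 0.54 (1.08 ± 0.72, exact sign-flip p = 0.25, adjusted 0.333). Without replicate 2 the mean difference was 0.67. Hspa5 in turn lay below Hsp90b1, the gene of the ER HSP90 paralogue GRP94, by -0.90, -2.54 and -0.62 (mean -1.35 ± 1.04, exact sign-flip p = 0.25, adjusted 0.333). Leaving out replicate 2 brought that mean to -0.76, so the size of the gap between these ER chaperones rested largely on that library.

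Among the divergent HSP70 genes, 2 of 3 lay above 1 TPM. Hspa14, which acts on the ribosome beside the J protein Dnajc2, was at 35.3, 8.53 and 14.002 TPM, with replicate 1 above the other libraries. Hspa12a was even across libraries at 3.11, 3.90 and 3.80 TPM, and its call (adjusted p = 0.0325 by limma) was lost when any library was left out (adjusted p from 0.0904 to 0.143 by limma) and with a pseudocount of 5 (0.0771). Hspa12b had 5, 3 and 12 counts and did not lie above 1 TPM (0.148, 0.0972 and 0.397 TPM).

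All 3 HSP110 genes, whose proteins exchange nucleotide on HSP70 and help it pull aggregates apart, lay above 1 TPM. Hspa4l was at 33.5, 23.1 and 15.3 TPM and Hsph1, the heat-inducible HSP105, at 12.9, 8.92 and 6.20 TPM. Both were highest in replicate 1 and lowest in replicate 3. Hspa4 stayed level at 13.6, 14.7 and 15.5 TPM (14.6 ± 0.99). Hspbp1, an exchange factor with another fold that the symbol rule includes, was at 43.5, 49.6 and 68.6 TPM.

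The 3 HSP90 genes were all among the 4 members with the highest mean TPM by the deposited lengths. With merged exon lengths Hsp90b1 ranked 6 among the members, at 165 ± 16.9 TPM. Hsp90ab1 (ENSMUSG00000023944, chromosome 17, 45878701 to 45884197 in GRCm39), the constitutive cytosolic form, was at 299.5, 151 and 350.4 TPM (267 ± 104). Hsp90aa1, the stress-inducible cytosolic form, was at 169, 186 and 154 TPM (169.7 ± 16.0). Hsp90b1 was at 172, 155 and 138 TPM (155 ± 17.2). Replicate 2 again held the lowest level of Hsp90ab1, while the other HSP90 genes were close to even.

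The constitutive HSP90 exceeded the inducible form in 2 of 3 libraries, with log2 differences of 0.82, -0.30 and 1.18 (0.57 ± 0.77, exact sign-flip p = 0.5, adjusted 0.571). The order of the pair was thus not settled by these libraries. Its mean was 1.00 without replicate 2 and 0.26 without replicate 3. With merged exon lengths Hsp90ab1 had a mean of 409 ± 159 TPM and ranked first among the members, ahead of Hsp90aa1 at 226 ± 21.8 TPM.

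Both genes of the mitochondrial chaperonin lay above 1 TPM. Hspd1 (HSP60), which forms the folding chamber, and Hspe1 (HSP10), which caps it, are adjacent on chromosome 1, at 55116994 to 55127402 and 55127291 to 55130466 in GRCm39, and share a promoter between them. Hspd1 was at 98.3, 95.1 and 84.1 TPM (92.5 ± 7.47) and Hspe1 at 84.9, 83.8 and 131 TPM (99.97 ± 27.0). The difference of Hspe1 minus Hspd1 was -0.21, -0.18 and 0.64 on the log2 scale (0.08 ± 0.48, exact sign-flip p = 1), so only replicate 3 held more Hspe1. Without replicate 3 the mean difference turned to -0.19.

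Of the member promoters searched, the shared promoter of Hspd1 and Hspe1 and that of Dnajb6 held a heat shock element, the site bound by heat shock factor 1. The element was searched on both strands as GAANNTTCNNGAA in the 250 bases before each RefSeq start site (GRCm38.p6, a build other than that of the deposited files). A promoter sequence was at hand for 58 of the 73 members. The other 15, among them Hsp90aa1, Hsp90ab1, Hspa8, Hspa9 and Hspb2, were not searched. It was present for 3 of those 58 genes (5.17%) and for 139 of 27025 genes in all (0.514%), or 0.466% of all promoters. Hspd1 and Hspe1 hold the same site, so these 3 genes stand for 2 sites. The stretches below are shown because they carry the element, in capitals, on the strand of Hspe1 and of Dnajb6. Those of Hspd1 and Hspe1 hold 2 overlapping matches, 1 on each strand, which begin 89 bases before the start of Hspe1. The site of Dnajb6 begins 46 bases before 1 of its RefSeq starts and 127 bases before another. All 250 bases searched for Hspd1, Hspe1 and Dnajb6 lie in exons annotated in GENCODE M21.
Hspd1-Hspe1, chr1:55088053-55088082, plus strand: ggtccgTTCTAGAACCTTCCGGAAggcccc
Dnajb6, chr5:29735844-29735873, plus strand: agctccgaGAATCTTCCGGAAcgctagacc
A match describes these letters only. A promoter without one may still hold an element that departs from them. Hspa1a, Hspa1b, Hsph1 and Dnajb1, named here as inducible by heat or stress, were searched and held no match.

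The ER stress response element of the unfolded protein response was searched in the same way as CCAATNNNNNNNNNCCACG. It was present for Hspa5, Hsp90b1 and Dnajc3, again 3 of 58 members (5.17%), against 35 of 27025 genes (0.130%) and 0.113% of all promoters. These are the 3 ER members whose stretches follow, with the element in capitals, on the strand of the gene. No member promoter searched held both elements, and the element of Hsp90b1 occurs once in each orientation.
Hspa5, chr2:34772020-34772049, plus strand, 65 bases before the start: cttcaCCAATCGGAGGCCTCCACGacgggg
Hsp90b1, chr10:86705632-86705661, minus strand, 212 bases before the start: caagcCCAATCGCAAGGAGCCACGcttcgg
Hsp90b1, chr10:86705527-86705556, minus strand, 107 bases before the start: gagtgCGTGGTGAGGCACGATTGGtgagtt
Dnajc3, chr14:118937822-118937851, plus strand, 105 bases before the start: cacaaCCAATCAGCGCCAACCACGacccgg
The 3 genes differed in their pattern by library. Hspa5 was low in replicate 2, while Hsp90b1 lay between 138 and 172 TPM and Dnajc3 between 48.7 and 64.8 TPM.

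Of the 7 small heat shock proteins, 4 lay above 1 TPM. Hspb1 (HSP25), which binds unfolded proteins and actin, was at 84.1, 60.2 and 129.9 TPM. Hspb8, which works with the co-chaperone Bag3 to send damaged proteins to autophagy, was at 43.5, 35.7 and 89.3 TPM. Both were highest in replicate 3 and lowest in replicate 2. Bag3 itself was at 16.8, 19.3 and 100.4 TPM, also with its high value in replicate 3. In that library neuronal markers were highest too, for 5 of 6 markers, and so were erythroid markers, for 5 of 6. The share was 33.8% over the protein-coding genes tested. The part of neurons or of erythroid cells in these values was not tested.

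Hspb6 (HSP20), known from muscle, was at 45.0, 23.5 and 11.3 TPM, lowest in replicate 3, the library in which Hspb1 and Hspb8 were highest. With merged exon lengths its mean was 42.4 ± 26.8 TPM in place of 26.6 ± 17.1. Hspb2 was listed at 62.5, 37.1 and 61.8 TPM, but it overlaps Cryab, the gene of the related small heat shock protein alpha B-crystallin, which had 11724, 9636 and 7287 counts against 615, 332 and 542 for Hspb2. Of the windows of Hspb2 25.5% occur in Cryab, so its level is uncertain.

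Hspb3, Hspb7 and Hspb9 did not lie above 1 TPM. Hspb3, known from muscle, had 58 counts in replicate 3 (11.2 TPM) and none in the others, where a count of 0 allows up to 0.163 and 0.199 CPM. Hspb9, known from testis, was at 1.08, 1.72 and 0 TPM (mean 0.931 ± 0.868, or 1.41 ± 1.32 with merged exon lengths), and Hspb7, known from heart, at 0, 0.214 and 0.928 TPM.

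**Figure D2:**
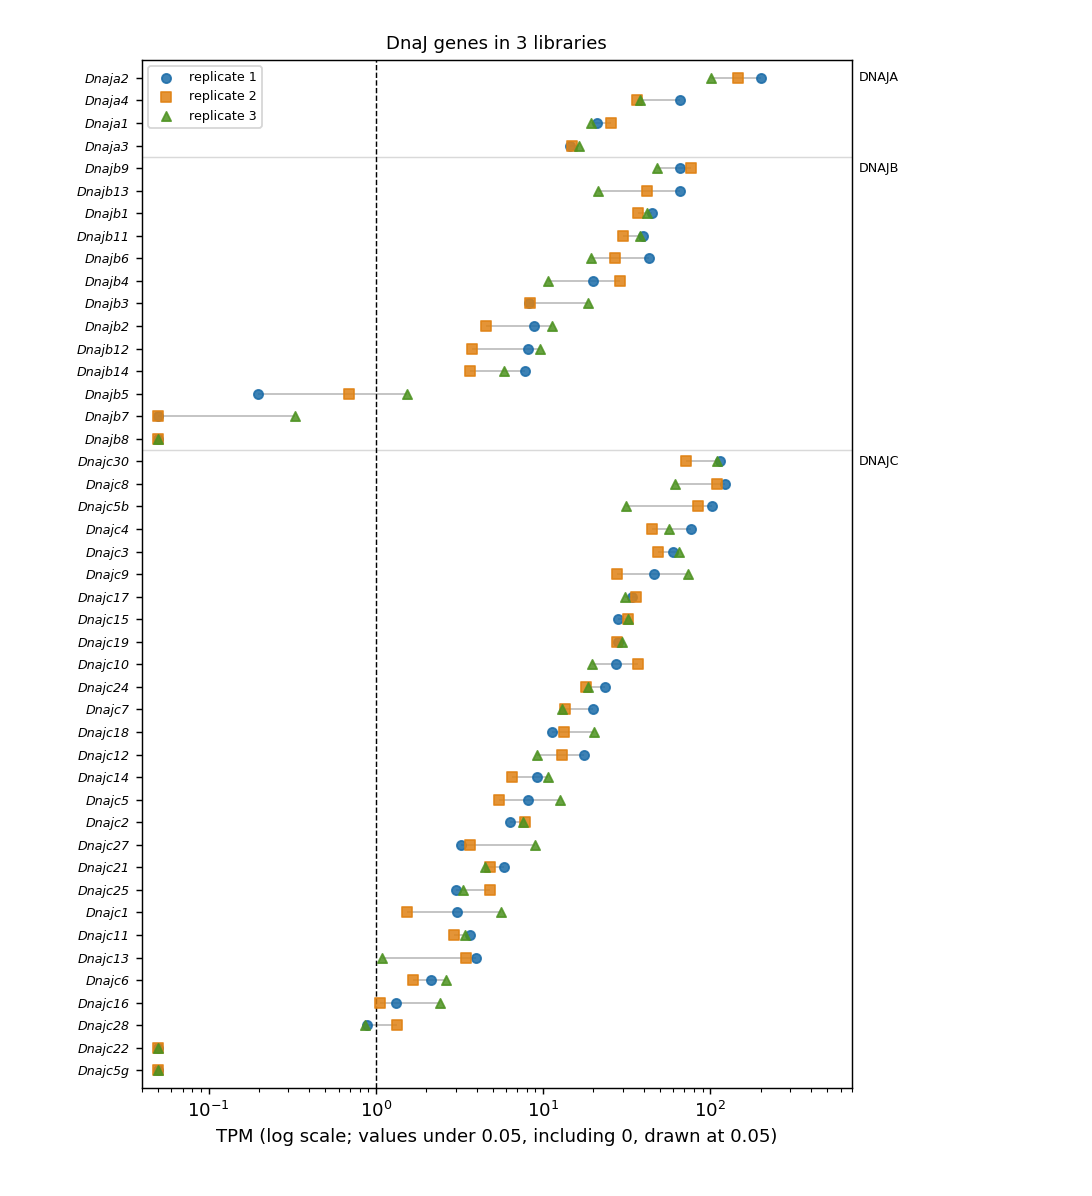
Level of each of the 45 Dnaj genes in each library, as TPM on a log axis, grouped by J protein class; each symbol is 1 library, the grey line joins the lowest and highest library, and the dashed line marks 1 TPM. By the deposited lengths used here Dnaja2 leads at 100.4 to 200.4 TPM. Dnajb8, Dnajc22 and Dnajc5g are drawn at the left edge because they had no count.

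By the deposited lengths the J proteins were led by Dnaja2, one of the cytosolic partners of HSC70. With merged exon lengths Dnajc8 had the higher mean, at 198 ± 63.7 TPM against 128 ± 41.7 TPM for Dnaja2. It was also higher without gene length, at 275 ± 76.0 CPM against 207 ± 53.8 CPM. All 4 DNAJA genes, which have the full domain layout of bacterial DnaJ, lay above 1 TPM. Dnaja2 was at 200.4, 146 and 100.4 TPM (149 ± 50.0), highest in replicate 1. Dnaja4 stood at 66.0, 36.4 and 38.2 TPM, but 51.5% of its windows occur in the overlapping gene Skic8 (3537, 3966 and 1913 counts), so its level is uncertain. Dnaja1, the other main cytosolic partner, was at 20.9, 25.4 and 19.4 TPM and the mitochondrial Dnaja3 at 14.6, 14.8 and 16.4 TPM. These lower members were even between libraries. Of the windows of Dnaja1 9.63% occur in the overlapping gene Smu1 (3111, 2543 and 1312 counts), so its level is uncertain.

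Of the 13 DNAJB genes, 10 lay above 1 TPM. Dnajb1, the heat-inducible HSP40 that serves HSP70 in the cytosol and nucleus, was at 44.7, 37.0 and 42.0 TPM (41.2 ± 3.95). Its highest library was 1.21 times its lowest on the scale of TPM + 1, against 2.55 and 2.32 times for its partners Hspa1a and Hspa1b. Dnajb6, a suppressor of protein aggregation whose promoter is shown above, was at 42.8, 26.8 and 19.2 TPM, and Dnajb4 at 19.9, 28.8 and 10.7 TPM. Dnajb2 passed at 8.25 ± 3.42 TPM (13.03 ± 5.41 with merged exon lengths), and Dnajb5, at 0.197, 0.689 and 1.55 TPM, did not.

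Dnaja1 lay below Dnajb1 in 3 of 3 libraries by TPM from the deposited lengths, by -1.06, -0.52 and -1.07 on the log2 scale (-0.89 ± 0.31, exact sign-flip p = 0.25, adjusted 0.333). With merged exon lengths the mean was -0.23 ± 0.32, and Dnaja1 was higher in 1 of 3 libraries (exact p = 0.5, adjusted 0.571). With the length of the longest transcript it turned to 0.27. The order of these 2 genes therefore depends on the length assigned to Dnaja1. In addition, 3 pseudogenes held 55.1% ± 3.74 of the counts of Dnaja1 and these copies, as described below. Their part in the order was not tested.

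**Figure D3:**
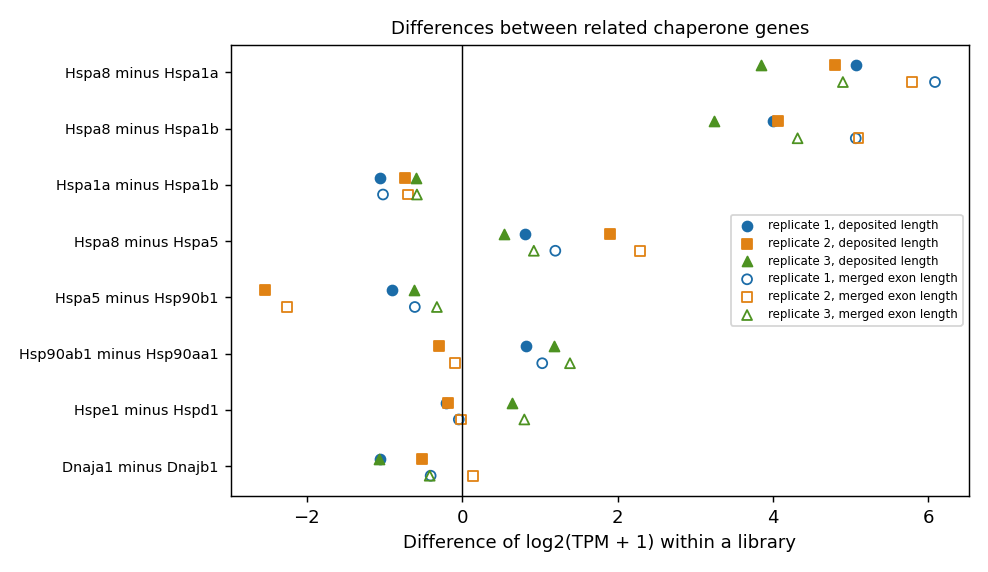
Difference of log2(TPM + 1) between the genes of 8 related pairs within each library; filled symbols use the deposited lengths and open symbols the merged exon lengths. Hspa8 lies 3.24 to 5.06 above Hspa1a and Hspa1b in each library, while the pairs of Hsp90ab1 with Hsp90aa1 and of Hspe1 with Hspd1 have libraries on either side of 0.

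Of the 7 J proteins of the ER, 6 lay above 1 TPM. Dnajb9 (ERdj4), which helps to clear misfolded ER proteins, was at 65.9, 76.8 and 48.2 TPM. Dnajc3 (p58IPK) was at 59.9, 48.7 and 64.8 TPM. Dnajb11 (ERdj3), which binds nascent chains beside BiP, was at 39.7, 29.96 and 38.1 TPM, and Dnajc10 (ERdj5), a disulfide reductase, at 27.2, 37.1 and 19.5 TPM. Dnajb9 and Dnajc10 were highest in replicate 2, and Dnajc3 and Dnajb11 lowest there.

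The membrane-bound Dnajb12 and Dnajb14 were lower, at 7.14 ± 3.03 and 5.76 ± 2.07 TPM, the former at 13.5 ± 5.69 TPM with merged exon lengths. The call of Dnajb14 was lost without replicate 1 (adjusted p = 0.0624 by limma). Dnajc1 (ERdj1), at 3.06, 1.54 and 5.64 TPM, did not pass (adjusted p = 0.091 by limma). It did under 5 alternatives, with adjusted p from 0.000247 (without gene length, against 1 CPM) to 0.049 by limma.

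The 5 mitochondrial J proteins all lay above 1 TPM. Dnajc30, which binds the ATP synthase, was listed at 114, 71.9 and 110.1 TPM. Of its windows 22.8% occur in the overlapping gene Bud23 (1279, 1034 and 902 counts), so its level is uncertain. Dnajc15 and Dnajc19, J proteins of the import motor in the inner membrane, were at 30.9 ± 2.38 and 28.3 ± 1.05 TPM, with very little spread. The processed pseudogene Dnajc19-ps holds 4.45% of the windows of Dnajc19. It had 671, 745 and 837 counts against 1027, 925 and 970 for the gene, so the level of Dnajc19 is uncertain. Dnajc11, an outer membrane protein that contacts the cristae-organising complex, was at 3.64, 2.95 and 3.42 TPM. Its call (adjusted p = 0.0435 by limma) was lost when any library was left out (0.112 to 0.156) and with a pseudocount of 5 (0.0903).

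Of all 28 DNAJC genes, which share only the J domain, 21 lay above 1 TPM. Dnajc8, a splicing-associated protein, was at 123, 110.3 and 61.8 TPM, and its mean of 98.3 ± 32.2 TPM became 198 ± 63.7 with merged exon lengths. Dnajc17, another splicing-associated J protein, was even at 33.8, 35.9 and 30.8 TPM. Dnajc9, a histone chaperone, was at 45.9, 27.5 and 73.0 TPM, lowest in replicate 2. Dnajc4 was at 76.1, 44.7 and 56.4 TPM by the deposited lengths, with a mean of 59.0 ± 15.9, and at 96.0 ± 24.8 TPM with merged exons.

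Dnajc7, a tetratricopeptide protein that links HSP70 and HSP90, had a mean of 15.5 ± 3.84 TPM, or 41.4 ± 9.80 TPM with merged exon lengths. Of its windows 9.57% occur in the overlapping gene Nkiras2 (144, 217 and 186 counts). A further overlapping gene, Cnp (2781, 759 and 2207 counts), holds 3.68%, so the level of Dnajc7 is uncertain. Dnajc24, an enzyme cofactor of diphthamide synthesis, was at 20.1 ± 2.95 TPM, and Dnajc2, the ribosome partner of Hspa14, at 7.26 ± 0.828 TPM. Dnajc21, which takes part in ribosome assembly, was at 5.06 ± 0.725 TPM, and its call was lost without replicate 1 (adjusted p = 0.0573 by limma). Dnajc25 at 3.72 ± 0.980 TPM lost its call when any library was left out (adjusted p from 0.0641 to 0.180 by limma), and Dnajc27 at 5.25 ± 3.16 TPM lost it without replicate 3 (0.0955). Each of the latter pair also lost it with a pseudocount of 5 (0.0786 and 0.0582). Dnajc18, Dnajc12, a partner of the aromatic amino acid hydroxylases, and Dnajc14 passed at 14.9 ± 4.68, 13.2 ± 4.16 and 8.79 ± 2.09 TPM. Of the windows of Dnajc14 25.0% occur in the overlapping gene Ormdl2 (1105, 1104 and 612 counts), so its level is uncertain. Dnajc16 and Dnajc28, at 1.60 ± 0.728 and 1.03 ± 0.274 TPM, did not, the latter being at 1.90 ± 0.517 TPM with merged exon lengths.

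J proteins of vesicles and endosomes were low, with 1 of 3 above 1 TPM. Dnajc5, the cysteine string protein of secretory vesicles, was at 8.12, 5.46 and 12.6 TPM (8.73 ± 3.61, or 14.4 ± 6.02 with merged exon lengths). Dnajc13, which acts on endosomes, was at 3.95, 3.48 and 1.09 TPM (adjusted p = 0.149 by limma). It passed without gene length, against 1 CPM (0.000385). Dnajc6, the neuronal auxilin that recruits Hspa8 to clathrin coats, was at 2.15, 1.68 and 2.62 TPM (adjusted p = 0.191 by limma). Its mean was 2.15 ± 0.471 TPM, or 3.42 ± 0.752 with merged exon lengths. It passed with merged exon lengths (0.0489), without the trend (0.0278) and without gene length, against 1 CPM (0.000991).

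Among 8 members known mainly from testis, 3 lay above 1 TPM. Dnajc5b, the cysteine string protein beta, was at 103, 84.0 and 31.5 TPM with 1660, 1237 and 454 counts, lowest in replicate 3. It was thus higher in each library than its widely expressed relative Dnajc5. Dnajb13, a protein of cilia and flagella, was listed at 65.6, 41.6 and 21.4 TPM, in the same order. It overlaps Ucp2, which had 2043, 709 and 1871 counts, and 9.17% of its windows occur in Ucp2, so its level is uncertain. Dnajb3 was at 8.20, 8.31 and 18.5 TPM. The other 5 (Hspa1l, Hspb9, Dnajb7, Dnajb8 and Dnajc5g) did not lie above 1 TPM, and Dnajb8 and Dnajc5g had no count.

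Several members have processed pseudogenes that share stretches of sequence with them, and many counts were listed under those copies. Counts are compared here between a gene and the pseudogenes that hold at least 5% of its 75-base windows. For Hspa8, 4 such copies held 14934, 7692 and 8328 counts in replicates 1 to 3, against 11077, 6157 and 7949 for the gene itself. They made up 54.7% ± 3.21 of the sum, mainly through Gm15459 (10195, 5176 and 4639 counts) and Gm8355 (4223, 2286 and 3291 counts). For Dnaja1, 3 copies held 55.1% ± 3.74, with 2751, 2458 and 2463 counts against 2142, 2371 and 1775.

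Hsp25-ps1 held 44.4% ± 3.82 of the counts of Hspb1 and its copy, and 5 copies held 35.7% ± 3.81 for Dnajb6. Smaller shares were 27.9% ± 1.18 for Hsp90aa1 with 2 copies, 15.0% ± 0.23 for Hspd1 and 11.9% ± 2.30 for Dnajc17. The shares varied little between libraries. Levels of these genes are therefore uncertain, and how reads with several matches were assigned was not given in the sources used here.

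**Figure D4:**
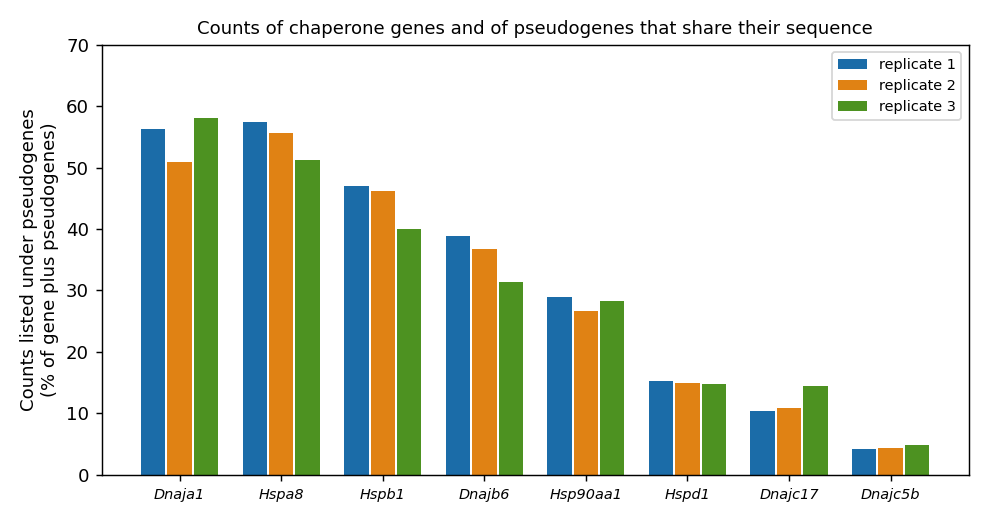
Counts listed under pseudogenes as a percent of the counts of the gene plus its pseudogenes, for 8 chaperone genes; each bar is 1 library. The share is above 50% in each library for Dnaja1 and Hspa8 and under 20% in each library for Hspd1, Dnajc17 and Dnajc5b.

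The spread between libraries was described by the ratio of the highest to the lowest library of TPM + 1. It was over 2 for 26 of the 70 members tested, beside 43.5% of all genes tested and 46.9% of the protein-coding genes tested. Among genes with a mean of at least 10 TPM it was over 2 for 14 of 43 members, beside 44.9% of all such genes. The count of 26 was 18 without replicate 1, 15 without replicate 2 and 4 without replicate 3, and 12 with a pseudocount of 5. Under these alternatives a ratio can only stay equal or fall, for any gene. The matching shares over all genes were not computed, so these counts describe the members alone. Small heat shock proteins (5 of 7) and cytosolic HSP70 genes (4 of 5) were over 2 for most of their members, and no DNAJA, chaperonin or mitochondrial J protein gene was. Of the members tested, 29 (41.4%) were highest in replicate 1, 12 (17.1%) in replicate 2 and 29 (41.4%) in replicate 3. Over the protein-coding genes tested these shares were 40.8%, 25.3% and 33.8%. Replicate 2 alone held the lowest value of 31 of the 70 (44.3%), beside 36.5% of the protein-coding genes tested. It did so for 4 of the 5 cytosolic HSP70 genes, and for Hspa1l it tied with replicate 3 at 0.

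The 10 members with the largest SD of log2(TPM + 1) fell into a few patterns by library. Hspa1l, Hspa14 and Hspa2 were high in replicate 1 alone, and Hspb3 in replicate 3 alone. Hspa5 was low in replicate 2 alone. Hspb6, Dnajc5b and Dnajb13 were highest in replicate 1 and lowest in replicate 3. Hspb9 was absent from replicate 3, and Dnajc1 was lowest in replicate 2. Replicate 2 was also the library with the highest value of 5 of 6 neutrophil markers and the lowest value of 5 of 5 Schwann cell markers. Of the protein-coding genes tested, 25.3% were highest in that library and 36.5% were lowest there alone. The part of neutrophils and Schwann cells in the chaperone values was not tested.

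**Figure D5:**
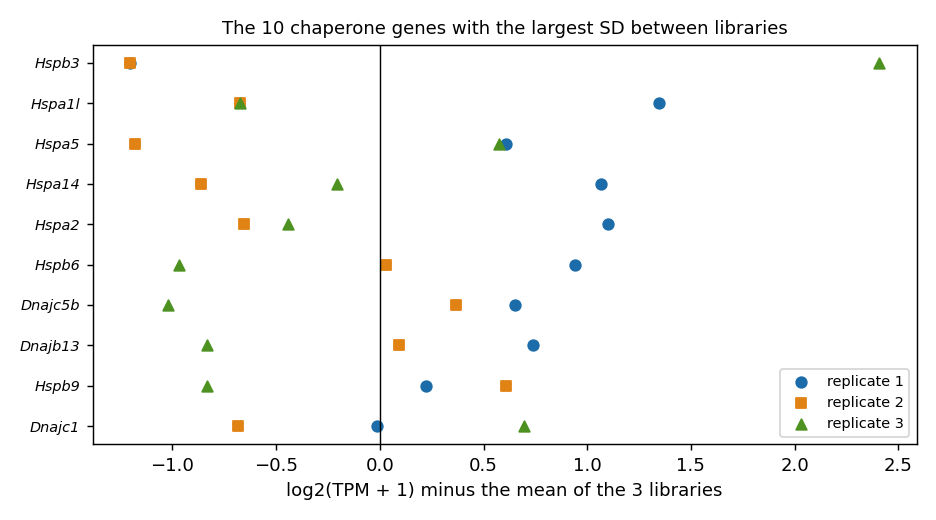
Deviation of log2(TPM + 1) of each library from the mean of the 3 libraries, for the 10 members with the largest SD between libraries; each symbol is 1 library. Hspb3 reaches its high value in replicate 3 and Hspa5 its low value in replicate 2.

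Partners and regulators of these chaperones were present to differing degrees. Their levels use the deposited lengths, and merged exon lengths raised the mean of several by more than 1.5 times, among those named here Hsbp1 to 603 ± 93.9 TPM, Hsf1 to 2.66 ± 1.97, Hsf4 to 0.991 ± 0.773, Bag1 to 262 ± 61.1, Stub1 to 169 ± 51.7 and Cryab to 736 ± 126. The means of Cryaa and Fosb moved by as much and stayed under 1 TPM. Of 4 genes for heat shock factors and their binding protein, 1 lay above 1 TPM. That was Hsbp1, which binds heat shock factor 1, at 401 ± 63.7 TPM. Hsf1 itself was at 2.78, 0.609 and 1.14 TPM and did not pass (adjusted p = 0.551 by limma). It did pass without gene length, against 1 CPM (0.00673), and with the length of the longest transcript (0.0434). Hsf2 and Hsf4 did not pass either, with means of 0.833 ± 0.247 and 0.656 ± 0.516 TPM.

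HSP90 co-chaperones lay above 1 TPM for 11 of 12 genes. Fkbp4, a cochaperone of steroid receptors, was at 151, 65.7 and 139 TPM and Stip1, which hands clients from HSP70 to HSP90, at 129, 60.5 and 145 TPM. Both were lowest in replicate 2, as Hsp90ab1 was. Ptges3 (p23) followed at 93.7 ± 22.3 TPM and Aarsd1 at 61.8 ± 23.3 TPM. Fkbp5 was the gene that did not pass, at 1.71, 0.310 and 8.09 TPM.

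Exchange factors of HSP70 and the ubiquitin ligase CHIP lay above 1 TPM for 10 of 11 genes, led by Bag1 at 149 ± 36.0 TPM, the mitochondrial Grpel1 at 135 ± 30.9 TPM and Stub1 (CHIP) at 80.0 ± 25.3 TPM. Hyou1, the exchange factor of BiP, did not pass, at 0.369, 0.589 and 0 TPM. Its level stood apart from those of its ER partners Hspa5 and Hsp90b1. All 8 subunits of the cytosolic chaperonin TRiC passed, led by Cct5 at 133 ± 59.8 TPM, Cct7 at 114 ± 59.2, Cct6a at 109 ± 48.1 and Cct8 at 91.8 ± 33.9. Of these subunits 7 of 8 were highest in replicate 1, beside 40.8% of the protein-coding genes tested.

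Related chaperones with other symbols passed for 6 of 7 genes, with Cryab at 439 ± 78.3 TPM, a mean above that of every member of the rule by the deposited lengths. The mitochondrial HSP90 paralogue Trap1 was at 31.9 ± 7.92 TPM, and the J proteins Hscb and Sec63 at 33.2 ± 12.2 and 7.99 ± 4.60 TPM. The lens crystallin Cryaa did not pass.

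Genes of the ER unfolded protein response passed for 12 of 14. Pdia3, a disulfide isomerase, was at 202 ± 60.9 TPM, the transcription factor gene Ddit3 (CHOP) at 160.4 ± 10.8, Creld2 at 142 ± 38.9 and Sdf2l1, a BiP partner, at 135 ± 46.0. The sensor genes Eif2ak3 and Ern1 did not pass. Immediate early genes, which are switched on within minutes of a stimulus, passed for 7 of 12. Ier3 was at 112 ± 13.9 TPM and Ier2 at 104, 30.2 and 91.6 TPM, followed by Dusp1 at 23.0 ± 12.2 TPM and Btg2 at 20.9 ± 9.52 TPM. Fos, Fosb, Jun, Egr1 and Atf3 did not pass. Replicate 2 alone held the lowest value of 8 of the 12 immediate early genes, Ier2 among them, beside 36.5% of the protein-coding genes tested. Ier3 was lowest in replicate 1 instead (98.3, 112 and 126 TPM). Hspa1a, Hspa1b, Hspa5 and Dnajb1 were also lowest in replicate 2, as was the case for 44.3% of the 70 members tested. The inducible Hsp90aa1 and the ER member Dnajb9 were instead highest there, and the heat-inducible Hsph1 was lowest in replicate 3.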

How the data were processed

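Polyadenylated RNA was copied and amplified with the SMART-Seq HT kit and sequenced on a NovaSeq instrument, per the labels' protocols. The authors deposited a table of read counts and of FPKM (counts scaled by gene length and library total), per the file headers. HISAT2, StringTie, edgeR and GRCm39 are named in the submitters' processing notes, without versions or roles. Use of strand and of reads with several matches was not given in the sources used here. From the deposited FPKM, TPM was computed and log2(TPM + 1) fitted with limma 3.58.1 in R 4.3.3, in an intercept-only model with a trend. Library factors for the alternatives came from edgeR 4.0.16 and DESeq2 1.42.0. The limma step was tested on simulated data. Shared 75-base windows and exon lengths came from GENCODE M21, matched by gene identifier, and promoters from RefSeq (GRCm38.p6).

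Members and lists were chosen with earlier results of these data known. Values are given for the 4 highest members of each class, a fixed set, the 10 most variable members and up to 4 genes of each other list. Other named members were added where a call changed. For 1 member, included in the counts over all members, values are not reported here. Hspb11 is listed under its newer symbol Ift25 and is no member by the rule. Of 2 records named Ddit3, that with more counts was used. No sequence of the proteins was used here.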

Additional observations from a re-analysis of the deposited data

How the results depend on the processing

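The number of members above 1 TPM was 58 as reported and 52 to 61 under 12 alternatives. The 61 came without gene length, where the test was against 1 CPM. Of the gene values recomputed, 1122 kept direction and call, 21 lost the call, 11 gained it and 14 changed direction. The sign of a difference turned for Hspe1 minus Hspd1 without gene length (-0.59) and when single libraries were left out (-0.19 to 0.23), and for Dnaja1 minus Dnajb1 without gene length (1.18) and with the longest transcript (0.27). The number of members whose libraries differed by more than 2 times was 26, became 12 with a pseudocount of 5 and ranged from 4 to 18 with a library left out. Such alternatives can only lower this number or leave it equal, and the matching shares over all genes were not computed. Genes near 1 TPM that were not called changed side. Values without gene length are given as log2 above 1 CPM, which is another threshold, and the others as log2 above 1 TPM. Dnajb5 was at 1.06 without gene length, 0.030 with merged exons, 0.021 with the longest transcript and -0.49 to 0.052 with a library left out. Hsf2 was at 1.49 without gene length and 0.35 with the longest transcript, and Hsf1 at -0.11 to 0.51 with a library left out. Hspb3 was at -1.19 with a pseudocount of 0.1 and -0.22 without gene length. Hspb9 was at 0.078 with merged exons and -0.47 to 0.25 with a library left out, Dnajc28 at -0.095 to 0.072 and Hspa1l at 0.0093 without replicate 2 or replicate 3. The cause of these changes was not tested. Lengths of merged exons and longest transcripts were alternatives added after the data were seen. No paired analysis was possible because the labels give a single group.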

Other observations

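The 16 rows of the table with Hsp or Dnaj symbols that are not protein-coding are all processed pseudogenes. Of these, 5 lay above 1 TPM by limma and 4 had no count. Dnajc19-ps was at 258, 314 and 360.3 TPM in replicates 1 to 3 (311 ± 51.5, SD, n = 3), higher in each library than Dnajc19, the gene of the mitochondrial import J protein, at 28.3 ± 1.05 TPM. Hsp25-ps1 was at 206 ± 51.7 TPM, Dnajb6-ps at 122 ± 66.6, Hspd1-ps3 at 26.4 ± 2.52 and Hspe1-ps3 at 6.66 ± 2.75. Their rows are short, so modest counts give a high TPM, and reads of the parent gene could be listed there.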
